A study of Mus musculus with 15 samples.

Results

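The comparison described here sets colon of APC mutant mice (APC+/-, Olfm4+/+) against colon of wild type mice (APC+/+, Olfm4+/+). It rests on 6 of the 15 arrays of the series, 3 per group, which were taken by their genotype labels. The mice were male littermates aged 3 months on a hybrid background of C57BL/6 and 129, so animals can also differ in the strain origin of single loci. RNA of whole colon was measured on Affymetrix Mouse430_2 arrays. The other arrays used are 3 of Olfm4 mutant colon (APC+/+, Olfm4-/-) and 3 of tumour-adjacent colon of double mutants (APC+/-, Olfm4-/-), of which adjacent arrays 2 and 3 carry the number of the same animal. The number of Olfm4 mutant replicate 3 joins the last digits of the other 2 Olfm4 mutant animals' numbers, so whether it is a separate animal is not known. 3 arrays of double mutant tumours, from the same 2 animals as the adjacent arrays, entered only the estimate of the spread. The labels name neither the APC allele nor the piece of colon, and do not say whether the APC mutant colons held tumours. The design answers which genes differ between the groups labelled as colon with 1 and with 2 intact copies of APC. It cannot tell that genotype apart from the place in the array numbering, given below.

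APC is the scaffold of the cytoplasmic complex that marks beta-catenin for destruction. When Wnt ligands bind, or when both copies of APC are lost, beta-catenin accumulates, enters the nucleus and, with TCF/LEF factors, switches on targets such as Axin2. A colon cell with 1 intact copy is known to keep most of this control, and tumours form after the other copy is lost.

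No gene passed in this comparison. By limma with Benjamini-Hochberg adjustment 0 of 18193 genes (0%) had an adjusted p under 0.05, and the lowest adjusted p was 0.194. At an unadjusted p under 0.05 there were 1324 genes (7.28%), of which 916 (5.03%) were higher and 408 (2.24%) lower in APC mutant colon. The 3 arrays of one group lay beyond all 3 of the other in 1661 genes (9.13%), 847 higher (4.66%) and 814 lower (4.47%). Most differences were small. The median size was 0.14 on the log2 scale, the 95th percentile 0.60, and a fold of at least 2 was reached by 96 genes upward (0.528%) and 68 downward (0.374%). The 95% interval of the difference lay within 1 log2 unit of 0 in 15615 genes (85.8%), and the median SE was 0.18, so smaller differences in either direction remain possible for most genes. The count of 0 depended on 1 array: without wild type replicate 1 there were 188 genes (1.03%), 156 higher (0.857%) and 32 lower (0.176%), which are described further on. Beyond that it was 1 with array weights and 1 without wild type replicate 3, and 0 under each of the other alternatives tried.

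**Figure D1:**
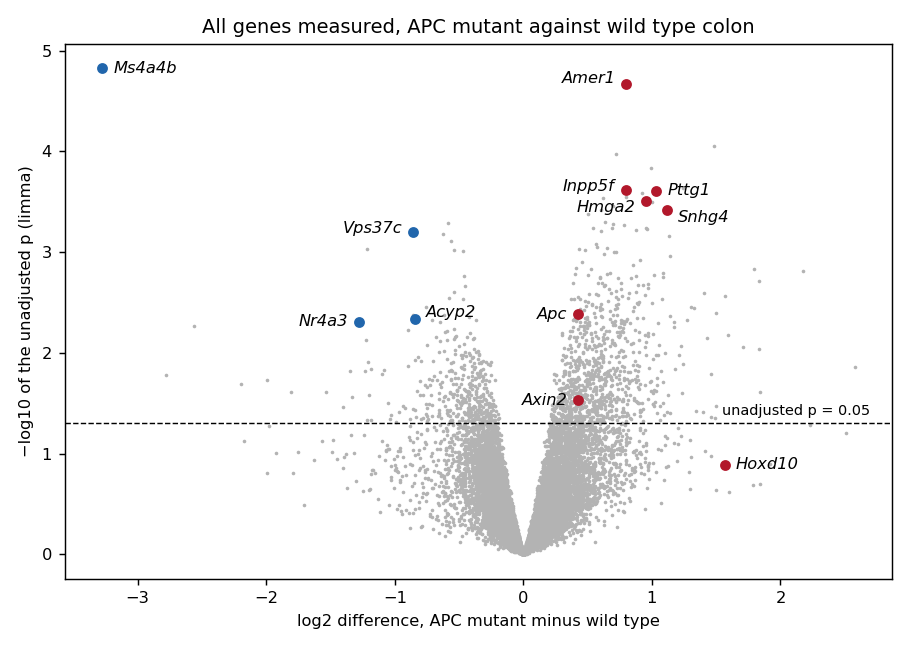
Log2 difference of APC mutant minus wild type colon (x axis) against −log10 of the unadjusted limma p (y axis) for each of 18193 genes, from 3 arrays per group. The dashed line marks an unadjusted p of 0.05; Ms4a4b at -3.27 and Amer1 at 0.80 stand highest, and neither passed after adjustment.

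Arrays did not sort by genotype throughout. The root mean square log2 difference over all genes ran from 0.383 to 0.468 between APC mutant arrays, from 0.384 to 0.676 between an APC mutant and a wild type array, and from 0.463 to 0.691 between wild type arrays. Wild type replicate 1 was nearer to APC mutant replicate 1 (0.396) than to either wild type array (0.691 and 0.609). Wild type replicate 3 was nearest to APC mutant replicate 2 (0.384). APC mutant replicate 3 was nearer to both other APC mutant arrays (0.468 and 0.383) than to any wild type array (0.496 to 0.676), and wild type replicate 2 was nearest to wild type replicate 3 (0.463). The SD was higher among wild type than among APC mutant arrays in 58.2% of genes. Of the 6 arrays, wild type replicate 2 was the highest or lowest in 44.4% of genes, and APC mutant replicate 2 in 23.9%.

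**Figure D2:**
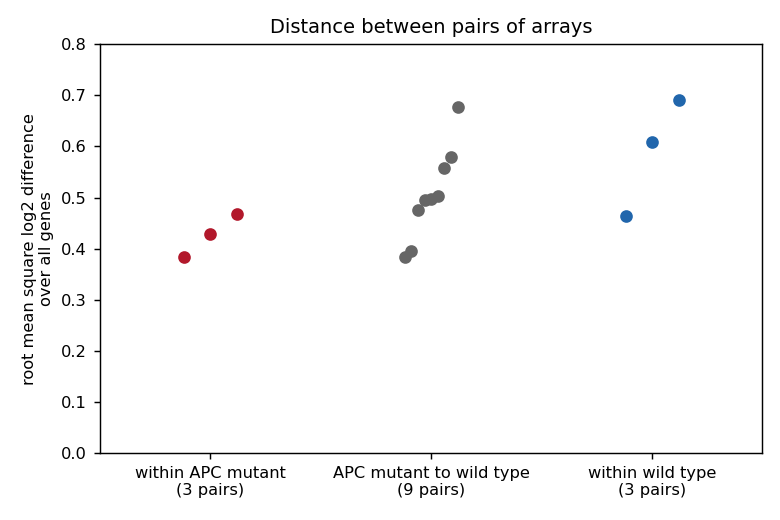
Root mean square log2 difference over all genes (y axis) for pairs of arrays within APC mutant, between APC mutant and wild type, and within wild type. Each point is 1 pair; the pairs between groups (0.384 to 0.676) span nearly the same range as the pairs within groups.

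RNA controls were alike in part. The mean 3-prime minus 5-prime difference of the added bacterial RNAs was 2.16 ± 0.203 in APC mutant and 1.99 ± 0.0831 in wild type arrays (SD, n = 3 each, exact permutation p = 0.3, 2-sided). That of Gapdh was 0.663 ± 0.0524 in APC mutant and 0.589 ± 0.0428 in wild type arrays (exact p = 0.2). That of Actb was 1.83 ± 0.373 in APC mutant arrays (1.43 to 2.17) and 1.15 ± 0.136 in wild type arrays (1.01 to 1.27), which do not overlap (exact p = 0.1, the smallest that 3 against 3 arrays can give). The part of this difference in the results below was not tested. The labels number the arrays 4 to 6 for APC mutant and 1 to 3 for wild type, so the place in that numbering and the genotype cannot be told apart. The epithelial genes Epcam (13.8 to 13.9 on all 6 arrays) and Vil1 were bright in both groups, as were Car1 and Car4 of colonocytes. Male genes fit the labels: Eif2s3y stood between 10.84 and 11.74 on the 6 arrays, and Xist between 4.19 and 4.74.

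The targeted genes gave no check of the labels. Apc had 4 probe sets. The brightest had 10.42, 10.78 and 10.64 in APC mutant arrays against 10.20, 10.04 and 10.31 in wild type arrays, all APC mutant arrays above all wild type arrays (difference 0.43, SE 0.12, adjusted p = 0.53). The other probe sets of Apc stood at 0.05, -0.06 and -0.06. Where these lie relative to the mutated part of the gene was not established, so an APC+/- genotype could not be read from them. Olfm4, a secreted glycoprotein of crypt base cells that is intact in both groups, stood near the lower end of the scale, at 3.14, 3.14 and 3.04 in APC mutant arrays against 3.01, 3.14 and 3.07 in wild type arrays.

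The machinery of the Wnt pathway was measured in 24 of 25 listed genes, with a median difference of 0.04 against -0.01 over all genes. 6 of the 24 had an unadjusted p under 0.05, all with higher means in APC mutant colon, and 0 had one in the other direction, against 5.03% and 2.24% of all genes; none passed after adjustment. The highest was Amer1, a membrane protein that binds APC and takes part in the control of beta-catenin. It had 10.52, 10.66 and 10.98 in APC mutant arrays against 10.05, 9.77 and 9.93 in wild type arrays. The groups do not overlap, and the difference was 0.80 (1.74-fold, SE 0.12, 95% interval 0.54 to 1.07, adjusted p = 0.19). A dimmer probe set of Amer1 stood at -0.09. The level of the brighter one was 11.03 in Olfm4 mutant colon, whose APC is intact, and 11.02 in adjacent tissue.

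Others of the machinery differed by less. The co-receptor Lrp6 had 12.32, 12.69 and 12.85 in APC mutant arrays against 12.31, 12.04 and 12.32 in wild type arrays (0.40, SE 0.13), where the lowest APC mutant array barely clears the highest wild type one; the most variable Lrp6 probe set stood at -0.33. The relay protein Dvl1 stood at 0.40 (SE 0.16), again without overlap. Lrp5, the relative of Lrp6, stood at -0.33 (SE 0.21), and the transcription factor Lef1 at 0.60 (SE 0.31), with overlapping arrays. Beta-catenin itself (Ctnnb1) had 13.53, 13.62 and 13.67 in APC mutant arrays against 13.70, 13.57 and 13.72 in wild type arrays. Its transcript differed by -0.06 (95% interval -0.25 to 0.13), and the arrays do not measure the protein.

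Wnt target genes were measured in 23 of 25 cases, with a median of 0.09, and 2 of 23 had an unadjusted p under 0.05, both higher, which is near the 7.28% of all genes at that p. Axin2, the feedback inhibitor that is the usual readout of the pathway, had 11.15, 11.02 and 11.26 in APC mutant arrays against 10.57, 10.57 and 11.01 in wild type arrays. The groups are apart by a narrow margin (0.43, SE 0.17, 95% interval 0.05 to 0.80, adjusted p = 0.64), and a dim Axin2 probe set stood at 0.01. Znrf3, the ligase that removes Wnt receptors from the surface, had 9.08, 9.31 and 9.69 in APC mutant arrays against 9.09, 8.52 and 8.56 in wild type arrays (0.64, SE 0.23, adjusted p = 0.60). Here wild type replicate 1 lay within the range of the APC mutant arrays, and a dimmer Znrf3 probe set stood at -0.27.

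Other targets did not follow in one direction. Ascl2, the transcription factor of colon stem cells, had 8.58, 7.27 and 8.71 in APC mutant arrays against 8.99, 5.40 and 7.23 in wild type arrays, a spread within wild type far wider than the difference of 0.98 (SE 0.69). Lgr5, the stem cell receptor for R-spondins, stood at -0.30 (SE 0.23), and the matrix protease Mmp7 at -0.57 (SE 0.90). The feedback inhibitors Nkd1, Notum and Wif1 stood at 0.31, -0.26 and 0.21, Wif1 at a mean of 4.38 in APC mutant and 4.17 in wild type arrays near the lower end of the scale. The growth regulators Myc (-0.01, SE 0.39) and Ccnd1 (0.02, SE 0.18), the crypt factor Sox9 (0.06) and the adhesion receptor Cd44 (-0.13) lay close to 0. The 18 stem cell genes had a median of 0.12, with 1 at an unadjusted p under 0.05 (against 7.28% of all genes). The 25 proliferation genes had a median of 0.05, and the cycling cell antigen Mki67 had 11.81, 11.51 and 11.99 in APC mutant arrays against 11.93, 11.71 and 11.13 in wild type arrays. The cell cycle transcription factor Foxm1 stood at -0.34 (SE 0.11, adjusted p = 0.58).

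**Figure D3:**
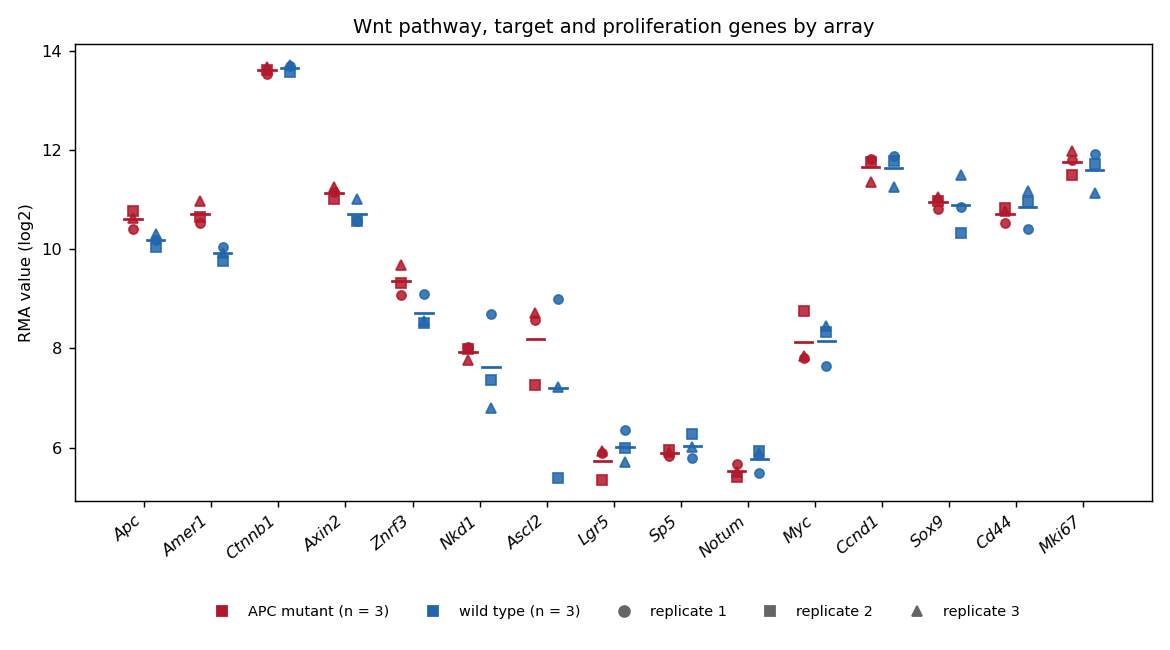
RMA values (log2, y axis) of 15 genes of the Wnt pathway, its targets and proliferation, by array. APC mutant arrays stand left of wild type arrays for each gene, marker shapes are replicates and short lines are group means; Apc, Amer1 and Axin2 do not overlap between the groups, while in Ascl2 the wild type arrays run from 5.40 to 8.99.

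TCF/LEF factors bind DNA at sites with the letters CTTTGAT, and promoters of targets are shown for that reason. The letters were looked for on both strands in RefSeq promoters (GRCm38.p6, 300 bases around each transcription start). They stood in at least 1 promoter of 4.29% of 27025 genes with an entry, and of 3 of the 14 measured targets with an entry, Sp5, Mmp7 and Tnfrsf19. Capitals mark them below.
Sp5, chr2:70474673-70474972, plus strand: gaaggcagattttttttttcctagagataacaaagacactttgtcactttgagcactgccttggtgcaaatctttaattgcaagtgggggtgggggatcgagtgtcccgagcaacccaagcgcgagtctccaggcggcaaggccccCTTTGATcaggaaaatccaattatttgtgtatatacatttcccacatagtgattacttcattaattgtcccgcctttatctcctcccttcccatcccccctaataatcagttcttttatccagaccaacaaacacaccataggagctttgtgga
Tnfrsf19, chr14:61037938-61038237, minus strand: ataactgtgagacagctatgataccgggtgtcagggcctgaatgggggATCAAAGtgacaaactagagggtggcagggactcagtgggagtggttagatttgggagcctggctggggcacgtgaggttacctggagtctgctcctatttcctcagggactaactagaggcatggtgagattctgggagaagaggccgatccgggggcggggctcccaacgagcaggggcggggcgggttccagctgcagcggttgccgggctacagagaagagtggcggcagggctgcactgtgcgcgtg
Sp5, a transcription factor switched on by beta-catenin, had 5.83, 5.94 and 5.91 in APC mutant arrays against 5.78, 6.28 and 6.02 in wild type arrays (-0.13, SE 0.38). Tnfrsf19, a receptor of crypt stem cells, had 6.403, 6.57 and 6.87 in APC mutant arrays against 7.08, 6.32 and 5.16 in wild type arrays (0.43, SE 0.44). Both overlap between the groups, and neither passed. A match describes these letters only and is no evidence that a factor binds there.

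Beyond the pathway, 12 genes in each direction were chosen for the smallest unadjusted p among those with separated arrays and a mean in at least 1 of the groups above the median of all gene means (8.39). None passed, and separation is part of the choice. Pttg1, also named securin, had 13.20, 13.13 and 13.18 in APC mutant arrays against 12.55, 12.36 and 11.49 in wild type arrays (1.03, SE 0.21). Its APC mutant arrays agree to within 0.1 and its wild type arrays spread over 1 unit. Cdk7, the kinase that activates other cell cycle kinases and belongs to TFIIH, had 10.83, 10.76 and 10.88 in APC mutant arrays against 10.21, 9.75 and 10.10 in wild type arrays (0.80, SE 0.16). Hmga2, an architectural chromatin protein of growing tissue, had 9.79, 9.33 and 9.17 in APC mutant arrays against 8.61, 8.19 and 8.61 in wild type arrays (0.96, SE 0.20). Each of these had an adjusted p of 0.40.

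Other members of the higher set were the phosphoinositide phosphatase Inpp5f (0.80, SE 0.16), phospholipase C gamma 1 (Plcg1, 0.50, SE 0.11), the deubiquitinase Usp46 (0.64, SE 0.14) and the adaptor subunit Ap5m1 (0.62, SE 0.13). Inpp5f had 10.50, 10.53 and 10.82 in APC mutant arrays against 10.05, 9.49 and 9.93 in wild type arrays. The snoRNA host gene Snhg4 (1.11, SE 0.23), the PDZ protein Pdzd2 (0.93, SE 0.19), Fry (0.70, SE 0.14) and Heatr6 (0.60, SE 0.13) complete the set with Amer1. In 6 of the 24 chosen genes the adjusted p fell under 0.05 once wild type replicate 1 was left out, among them Amer1 (0.022), Pttg1 (0.023) and Inpp5f (0.039).

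In the lower set, Vps37c, a subunit of the ESCRT-I sorting complex, had 10.96, 10.89 and 11.05 in APC mutant arrays against 11.82, 12.05 and 11.61 in wild type arrays (-0.86, SE 0.19, adjusted p = 0.40). Cnih4, a cargo receptor of the endoplasmic reticulum, stood at -0.47 (SE 0.13), the fusion factor Napa at -0.42 (SE 0.12) and the Arf regulator Agap1 at -0.54 (SE 0.13), against 0.08 for its most variable probe set. Nr4a3, an immediate early nuclear receptor, had 9.29, 10.87 and 9.96 in APC mutant arrays against 11.04, 11.41 and 11.51 in wild type arrays (-1.28, SE 0.38, adjusted p = 0.53). The cochaperone Dnajb4 stood at -0.61 (SE 0.19), the acylphosphatase Acyp2 at -0.85 (SE 0.25), the proteasome subunit Psmd11 at -0.47 (SE 0.11), laminin beta 3 (Lamb3) at -0.45 (SE 0.12), and Jpt2 at -0.58 (SE 0.13). Antxr2, the receptor of anthrax toxin, stood at -0.62 (SE 0.18), and Ms4a4d at -0.58 (SE 0.16).

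**Figure D4:**
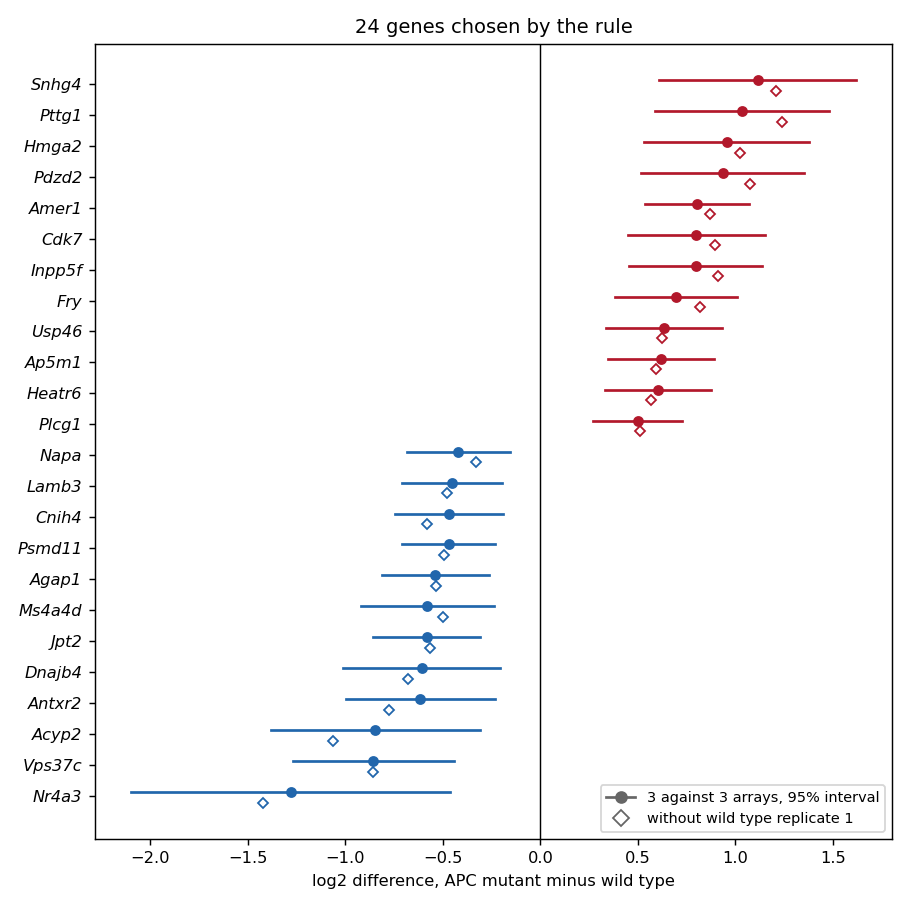
Log2 difference of APC mutant minus wild type colon (x axis) for 24 genes chosen for small p and separated arrays; filled points with bars are the limma estimate and its 95% interval from 3 arrays per group, open diamonds the estimate without wild type replicate 1. Since the genes were chosen for separated arrays, leaving out an array cannot turn the sign; Nr4a3 has the lowest estimate with all arrays (-1.28) and Snhg4 the highest (1.11).

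Ms4a4b, a membrane protein of T cells, was singled out after its values were seen, because its adjusted p tied with that of Amer1 for the lowest. It lies outside the rule, since its mean in each group is below the median of all gene means. It had 4.65, 4.49 and 4.35 in APC mutant arrays against 6.82, 8.57 and 7.93 in wild type arrays, a gap of over 2 log2 units with nothing in between (-3.27, SE 0.49, adjusted p = 0.19). It averaged 5.48 in Olfm4 mutant colon (4.41 to 6.56) and 6.95 in adjacent tissue (6.79 to 7.25). The lowest Olfm4 mutant array, whose APC is intact, thus lay within the range of the APC mutant arrays. It was the only gene called with array weights. Among its relatives Ms4a4d stood at -0.58, as given above, Ms4a7 at 0.50, Ms4a1 of B cells at 1.30 and Ms4a4c at 0.31, which was -0.31 without wild type replicate 1. The T cell list it does not belong to had 14 measured genes with a median of -0.04, in which the signalling chain Cd3e stood at 0.55 (SE 0.36) and the granzymes Gzma and Gzmb at -0.87 and -0.88.

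Interferon response genes were lower on average in APC mutant colon in a way that turned on single wild type arrays. All 21 measured of 24 listed genes had a difference below 0 (median -0.74), against 9364 of 18193 over all genes. Of the 21, 2 had an unadjusted p under 0.05, both lower (against 2.24% of all genes), and 0 passed. The list averaged 8.79, 8.89 and 9.07 in APC mutant arrays against 8.22, 11.16 and 9.59 in wild type arrays. Wild type replicate 1 lay below all 3 APC mutant arrays, and replicates 2 and 3 above them, so the groups overlap. Cxcl10, the chemokine that draws T cells, had 7.90, 8.06 and 7.56 in APC mutant arrays against 7.41, 11.53 and 8.77 in wild type arrays (-1.40, SE 0.81). Irf7, the master factor of the type I response, had 10.31, 9.62 and 10.15 in APC mutant arrays against 9.82, 12.31 and 11.04 in wild type arrays (-1.03, SE 0.46, adjusted p = 0.67). Both show the same order of wild type arrays. Without wild type replicate 1 the median of the list was -1.57, and Irf7 was the 1 member called.

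Early response and heat shock genes went with the same arrays. Of 20 genes 16 lay below 0 (against 9364 of 18193 over all genes), with a median of -0.54. Of the 20, 5 had an unadjusted p under 0.05, all lower (25% of the list against 2.24% of all genes), and 0 passed. The list averaged 9.44, 9.99 and 9.78 in APC mutant arrays against 9.44, 11.30 and 10.28 in wild type arrays. Hspa1a, the stress-inducible Hsp70, had 6.98, 8.01 and 8.24 in APC mutant arrays against 8.53, 11.58 and 8.55 in wild type arrays (-1.81, SE 0.71). The groups do not overlap, and wild type replicate 2 stands about 3 units above the rest. The cochaperone Dnajb1 stood at -0.58 (SE 0.26), Junb of the AP-1 complex at -0.56 (SE 0.22), and its relative Jun at 0.09 (SE 0.11). Fosl1, an AP-1 factor of wounded epithelium, had 5.24, 7.37 and 4.25 in APC mutant arrays against 4.09, 10.48 and 8.29 in wild type arrays. Of 12 genes of unfolded protein and amino acid stress, 3 had an unadjusted p under 0.05, all lower (against 2.24% of all genes). They were led by Ddit3 (-0.68, SE 0.21), with Herpud1 at -0.30 and the chaperone partner Dnajb9 at -0.29.

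Defence genes of the epithelium showed wild type replicates 2 and 3 above the other arrays. Reg3b, a secreted lectin that acts on bacteria, had 4.86, 4.87 and 4.90 in APC mutant arrays against 4.60, 9.17 and 7.37 in wild type arrays (-2.17, SE 1.12, adjusted p = 0.72). Its relative Reg3g had 7.53, 5.57 and 6.29 in APC mutant arrays against 5.56, 9.73 and 9.48 in wild type arrays (-1.79, SE 1.19). The 13 Paneth and antimicrobial genes had a median of -0.25, with 0 at an unadjusted p under 0.05. The EGF receptor ligands Ereg (-1.01, SE 0.78) and Hbegf (-0.91, SE 0.96) followed that order of arrays, while the receptor Egfr had 10.55, 11.17 and 10.79 in APC mutant arrays against 10.14, 10.34 and 10.53 in wild type arrays (0.50, SE 0.18), though the mean of all Egfr probe sets stood at -0.16. The 24 NF-kappaB and cytokine genes had a median of -0.13, with the chemokine Ccl2 at -1.08 (SE 0.64) and the p65 subunit Rela at -0.49 (SE 0.18).

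The muscle wall and its nerves ran the other way between the wild type arrays. All 14 smooth muscle genes lay above 0 (against 8829 of 18193 over all genes), with a median of 0.19 and none at an unadjusted p under 0.05. The list averaged 12.15, 11.97 and 11.95 in APC mutant arrays against 12.78, 11.28 and 11.44 in wild type arrays. The 3 APC mutant arrays lie between wild type replicate 1 and the other 2 wild type arrays. Phospholamban (Pln), the regulator of the calcium pump, had 8.92, 8.95 and 8.93 in APC mutant arrays against 9.91, 7.70 and 7.95 in wild type arrays, and desmin (Des) stood at 0.20 (SE 0.47). The 15 genes of enteric neurons and glia averaged 8.93, 8.46 and 8.36 in APC mutant arrays against 9.48, 7.51 and 8.05 in wild type arrays, with a median of 0.13. Elavl4, an RNA-binding protein of neurons, stood at 1.10 (SE 0.55) and Ret, the receptor of enteric neural crest cells, at 1.02 (SE 0.40). Without wild type replicate 1 the medians were 0.69 for smooth muscle and 0.81 for neurons and glia. In whole tissue, fewer cells of a type and less RNA per cell cannot be told apart, which holds for each cell type named here.

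Genes that mark position along the gut spread widely. Hoxd10 had 8.29, 10.64 and 11.40 in APC mutant arrays against 10.81, 6.18 and 8.63 in wild type arrays (1.57, SE 0.96, adjusted p = 0.77). Hoxd13, the posterior-most gene of its cluster, had 10.13, 12.22 and 12.77 in APC mutant arrays against 12.21, 8.60 and 11.05 in wild type arrays (1.09, SE 0.77). In both genes the groups overlap and wild type replicate 2 is lowest. The 16 genes of posterior Hox and colon identity had a median of 0.17. Of these, 1 (Hoxd9, 1.01, SE 0.42) had an unadjusted p under 0.05, against 5.03% of all genes higher at that p. The 17 genes of the small intestine had a median of -0.13, led downward by the apolipoprotein Apoa1 (-1.09, SE 0.38). Of the 17, 2 had an unadjusted p under 0.05, both lower, against 2.24% of all genes. Whether the position along the colon differed between the samples was not tested.

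The lists of differentiated epithelium leaned below 0. There 16 of 20 absorptive colonocyte and 11 of 12 tuft cell genes lay below 0, against 9364 of 18193 over all genes. The medians of these lists without wild type replicate 1 were -0.21 and -0.44. With all arrays, medians were -0.07 for 20 absorptive colonocyte, -0.02 for 15 goblet cell, -0.14 for 16 enteroendocrine and -0.29 for 12 tuft cell genes. Of these, 0, 1, 1 and 0 had an unadjusted p under 0.05, against 7.28% of all genes. The members at that p were Gfi1, a factor of secretory cells, at 1.01 (SE 0.40), and Isl1, a factor of endocrine cells and neurons, at 0.88 (SE 0.33). Muc2, the mucin of goblet cells, had 13.36, 13.11 and 13.36 in APC mutant arrays against 13.02, 13.46 and 13.26 in wild type arrays. The phosphatase Alpi, which marks mature enterocytes, had 7.37, 7.39 and 6.23 in APC mutant arrays against 5.70, 11.17 and 8.24 in wild type arrays (-1.37, SE 1.06). Notch genes had a median of 0.23, with 11 of 12 above 0 (against 8829 of 18193 over all genes) and 2 higher at an unadjusted p under 0.05 (against 5.03% of all genes), the ligand Jag1 (0.59, SE 0.19) and the receptor Notch2 (0.62, SE 0.28). The Notch list averaged 9.21, 9.31 and 9.31 in APC mutant arrays against 9.23, 8.76 and 9.04 in wild type arrays. Wild type replicate 1 lay within the APC mutant range, and without it the median was 0.35. The targets Hes1 (0.04) and Hes5 (0.03) lay near 0.

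Some immune and other tissue genes depended on single samples. B cell genes averaged 8.06, 7.33 and 8.39 in APC mutant arrays against 7.10, 6.505 and 8.35 in wild type arrays, with a median of 0.67. At an unadjusted p under 0.05, 2 of 12 were higher and 1 lower, against 5.03% and 2.24% of all genes. The plasma cell gene Ighg3, an immunoglobulin G chain, had 11.05, 10.58 and 11.37 in APC mutant arrays against 6.92, 7.28 and 11.06 in wild type arrays (2.58, SE 0.90, adjusted p = 0.60), while the 10 plasma cell genes had a median of 0.01. Exocrine pancreas genes averaged 8.29, 6.76 and 6.88 in APC mutant arrays against 6.81, 6.71 and 6.74 in wild type arrays. Only APC mutant replicate 1 stood apart, as in the digestive protease Ctrb1 with 7.27, 4.17 and 4.27 in APC mutant arrays against 3.81, 4.21 and 4.19 in wild type arrays. Of the 11 exocrine pancreas genes, 2 were higher at an unadjusted p under 0.05, against 5.03% of all genes. The fat hormone Adipoq had 9.55, 9.33 and 5.94 in APC mutant arrays against 4.75, 4.24 and 10.31 in wild type arrays, and the median of the 8 adipocyte genes was -0.01. The neutrophil peroxidase Mpo had 5.00, 5.61 and 5.99 in APC mutant arrays against 6.29, 7.01 and 6.94 in wild type arrays, without overlap (-1.22, SE 0.28, adjusted p = 0.43). The part of pancreas, fat, muscle and lymphoid tissue in the other results was not tested.

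**Figure D5:**
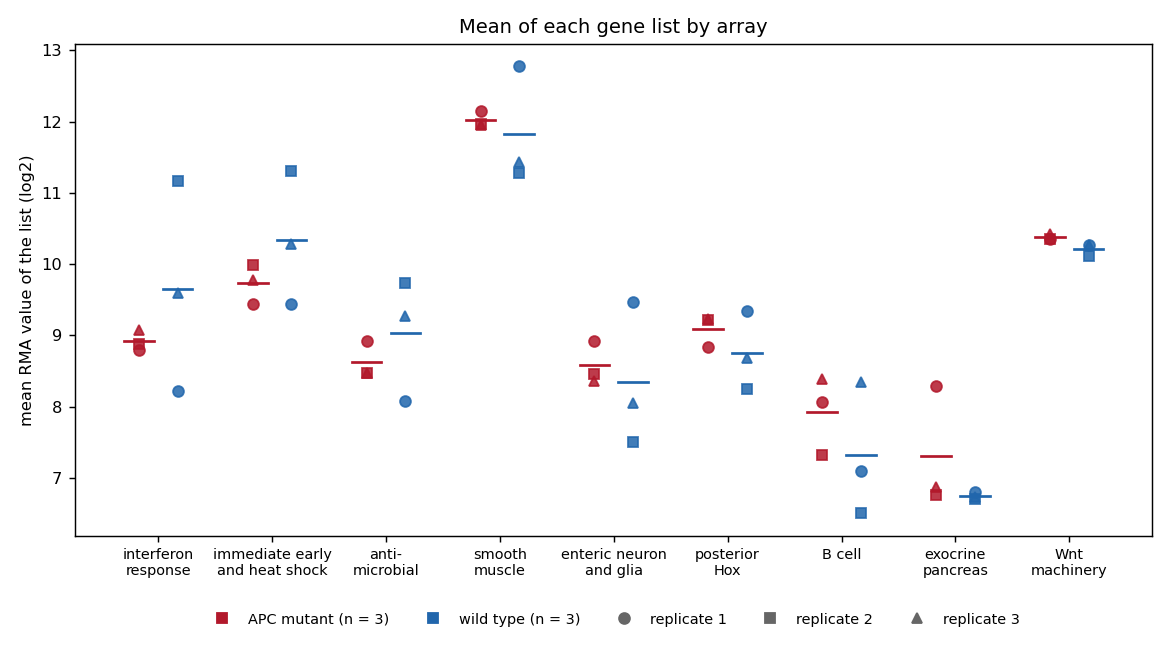
Mean RMA value (log2, y axis) of 9 gene lists on each array, APC mutant left of wild type, with marker shapes for replicates and short lines for group means. Wild type replicate 2 is highest for interferon response (11.16) and early response genes (11.30), wild type replicate 1 for smooth muscle (12.78), and APC mutant replicate 1 for exocrine pancreas (8.29).

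The remaining lists had medians between -0.18 and 0.29, and some leaned to one side. Fibroblast and matrix genes lay above 0 in 14 of 15 (against 8829 of 18193 over all genes), with a median of 0.365 without wild type replicate 1. Mast cell genes lay below 0 in 9 of 10 (against 9364 of 18193). Medians were 0.16 for 15 fibroblast and matrix genes, among which the growth factor receptor Pdgfra had 10.71, 11.27 and 10.92 in APC mutant arrays against 10.48, 10.37 and 10.57 in wild type arrays (0.49, SE 0.18). They were 0.10 for endothelial, 0.03 for macrophage, -0.08 for neutrophil, -0.18 for mast cell and -0.09 for MHC class II genes. They were -0.16 for EGF pathway, -0.08 for p53 target, 0.05 for fatty acid oxidation, -0.09 for cholesterol synthesis and -0.08 for xenobiotic genes. Of 15 fibroblast and matrix and 11 EGF pathway genes, 2 each were higher at an unadjusted p under 0.05, against 5.03% of all genes. The 17 circadian genes had a median of -0.11, with the clock repressor Cry1 at -0.86 (SE 0.37). Of the 17, 1 was higher and 2 lower at an unadjusted p under 0.05, against 5.03% and 2.24% of all genes. The 4 genes that differ by sex had a median of 0.29. Ribosomal protein genes stood at a median of -0.03 and respiratory chain genes at -0.07. Below 0 lay 33 of 46 and 73 of 90 of them, against 9364 of 18193 over all genes. Of the respiratory chain genes 3 had an unadjusted p under 0.05, all lower, against 2.24% of all genes.

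Leaving out wild type replicate 1 changed the count of called genes more than leaving out any other array. Of the 188 genes called without it, that array lay outside the APC mutant range on the side of the other wild type arrays in 42, within the range in 52, and beyond the range on the far side in 94. The 5 remaining arrays had 156 genes higher in APC mutant colon. Fzd2, a Wnt receptor of the Frizzled family, had 10.46, 10.46 and 10.52 in APC mutant arrays against 10.78, 7.32 and 8.85 in wild type arrays. It stood at 2.40 without wild type replicate 1, which is above all 3 APC mutant arrays, against an adjusted p of 0.65 with it (SE 0.63). The secreted hormone Stc2 had 10.93, 10.76 and 10.43 in APC mutant arrays against 10.24, 8.88 and 7.50 in wild type arrays (2.52 without replicate 1). The neuronal genes Elavl4 (1.93) and Nsg2 (2.04) were among those higher, and the interferon-induced Oas3 (-2.04), Irf7 (-1.65) and the cytokine feedback inhibitor Socs3 (-1.87) among those lower.

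The genes beside Apc were described because genes close to a mutated allele are inherited with it in crosses between strains. Of the 10 measured genes on each side of Apc on chromosome 18 in GRCm38.p6, 1 of 20 had an unadjusted p under 0.05 (against 7.28% of all genes), and the median was 0.06. This was Brd8, a subunit of a histone acetylase complex, with 10.97, 10.59 and 11.19 in APC mutant arrays against 10.58, 9.90 and 10.30 in wild type arrays (0.66, SE 0.18, adjusted p = 0.53). The nearest genes, Epb41l4a and Srp19, stood at 0.11 and 0.00. Whether genes further along the chromosome differ as a set was not tested.

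APC mutant colon was also set against Olfm4 mutant colon, which differs in both genotypes; this comparison shares the APC mutant arrays with the first. Here 44 genes passed (0.242%), 7 higher (0.0385%) and 37 lower (0.203%) in APC mutant colon, and 0 passed with the spike-in difference as a covariate or without Olfm4 mutant replicate 3. It was 26 with the animal as a random block. With each of the other arrays left out in turn the count ran from 4 without Olfm4 mutant replicate 2, through 9 without APC mutant replicate 1, 10 without replicate 2 and 26 without replicate 3, to 45. The spike-in difference was 2.16 (1.93 to 2.32) in APC mutant and 2.64 (2.29 to 3.25) in Olfm4 mutant arrays. Commd7, a COMM domain protein, averaged 8.99 ± 0.20 in APC mutant and 11.20 ± 0.15 in Olfm4 mutant colon (SD, n = 3 arrays each, of which Olfm4 mutant replicate 3 may not be a separate animal; -2.21, SE 0.25, adjusted p = 0.0087 by limma). Rinl, a guanine nucleotide exchange factor, averaged 8.30 in APC mutant and 6.53 in Olfm4 mutant colon (1.77, SE 0.19), and Hcst, a signalling adaptor of lymphocytes, was likewise higher in APC mutant colon (1.05, SE 0.13). Without Olfm4 mutant replicate 3 each of these had an adjusted p of 0.075, with differences of -2.20, 1.80 and 1.07. Commd7, Rinl and Hcst stood at -0.42, 0.19 and -0.15 in APC mutant minus wild type. Of the 44 genes, 6 lie on the chromosome of Olfm4, which holds 640 of 18029 genes with a chromosome. On the chromosome of Apc lies 1 of the 44, Epb41l4a, and the total of genes on that chromosome was not counted.

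The same step in APC genotype on an Olfm4-/- background is that of adjacent tissue against Olfm4 mutant colon, which shares no array with the first comparison but differs in tissue state too. There 8 genes passed (0.044%), 7 higher (0.0385%) and 1 lower (0.0055%), and the count ran from 0 to 3308 over the alternatives, with 0 when the spike-in covariate was used. Adjacent arrays had a spike-in difference of 4.10 (3.91 to 4.45) against 2.64 (2.29 to 3.25) in Olfm4 mutant arrays. Rinl was higher by 1.86 (SE 0.19) and the receptor Lair1 by 2.12 (SE 0.23), each with an adjusted p of 0.0059 by limma. In APC mutant minus wild type Rinl and Lair1 stood at 0.19 and 0.79, neither called. Rinl averaged 8.11 in wild type, 8.30 in APC mutant and 8.40 in adjacent colon, against 6.53 in Olfm4 mutant colon. Without Olfm4 mutant replicate 3, 0 genes passed in this step. The proteoglycan Sdc4 fell by 1.01 (SE 0.15), and the hepcidin gene Hamp2 rose by 2.86 (SE 0.38). These stood at 0.11 and -0.11 in APC mutant minus wild type. With the animal as a random block 3 genes passed, Hamp2 among them (adjusted p = 0.038) and Sdc4 not (0.11), and without Olfm4 mutant replicate 3 both had 0.24. Of the 12 genes chosen as higher in APC mutant colon, 8 lay above 0 in this step, between -1.15 and 0.41, and of the 12 lower genes 6 lay below 0. The share of all genes on each side of 0 in this step was not counted, so these counts have no background. Amer1 stood at 0.00 there, Pttg1 at -0.27 and Hmga2 at -1.15. Mpo, not chosen by that rule, stood at -1.19 there (SE 0.28, adjusted p = 0.078 by limma), against -1.22 in APC mutant minus wild type. The neutrophil list that holds Mpo was not lower there. It averaged 5.96, 6.23 and 7.45 in adjacent arrays against 6.24, 5.65 and 6.09 in Olfm4 mutant arrays. The interaction, the step in Olfm4-/- mice less the step in Olfm4+/+ mice, had 0 genes called (0%) and 1901 (10.4%) at an unadjusted p under 0.05. It had 93 without wild type replicate 1 and 52 without Olfm4 mutant replicate 2. Ms4a4b (4.74, adjusted p = 0.11 by limma) and Hmga2 (-2.10, adjusted p = 0.078) had the lowest adjusted p in it among the genes chosen by the rule and Ms4a4b. Both were picked for their APC mutant minus wild type difference, which is part of the interaction. These p are therefore no separate evidence.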

How the data were processed

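RNA was extracted with Trizol and labelled with biotin, per the labels' protocols. The values deposited are on a log2 scale, made by RMA in Partek 6.5 per the submitters' processing notes. RMA quantile normalizes arrays together, which takes out most of any shift shared by many genes. Neither a genome build nor detection calls are given by the sources used. Of 45101 probe sets, 34945 carry 1 gene symbol, and each of 18193 genes is represented by its brightest probe set over the 15 arrays. In limma 3.58.1 (R 4.3.3) 5 group means were fitted to these arrays, with Benjamini-Hochberg adjustment over all genes at 0.05. SE is the standard error of a fitted log2 difference. The 39 lists were described by counts and medians, and some share members. The rule named 15 fixed genes, 12 genes per direction with the smallest p, separated arrays and a mean in either group above the median of gene means (predicted symbols skipped), and the extremes of each list. Other names were chosen after their values were seen. Genes, lists and comparisons were chosen with earlier results of these data known. By the labels, the 6 adjacent and tumour arrays come from 2 animals, and Olfm4 mutant replicate 3 may not be a separate animal.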

Additional observations from a re-analysis of the deposited data

How the results depend on the processing

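With 3 arrays per group, differences under about 0.4 on the log2 scale are inside the 95% interval for most genes. For APC mutant against wild type the count of 0 became 1 with array weights and ran from 0 to 188 when 1 array was left out (188 without wild type replicate 1, 1 without wild type replicate 3). Unadjusted counts ran from 597 to 2912. For APC mutant against Olfm4 mutant, 44 genes became 190 with the most variable probe set, 23 with cyclic loess, 22 with a trended and robust prior, 779 with array weights, 12 with only the groups compared and 0 with the spike-in covariate, and 0 to 45 with 1 array left out. For adjacent against Olfm4 mutant, 8 became 432, 135 with only genes above the median mean, 81 with the trended prior, 3308 with array weights, 1 with only the groups compared and 0 with the covariate, and 0 to 774 with 1 array left out. The interaction count of 0 became 1 with the mean of all probe sets, with the filter on dim genes and with cyclic loess, 6 with the most variable probe set and 22 with array weights, and 0 to 93 with 1 array left out. With the animal as a random block for adjacent and tumour arrays (chosen after seeing the data) the counts were 26 for APC mutant against Olfm4 mutant, 3 for adjacent against Olfm4 mutant and 0 for the other comparisons. The cause of these shifts was not tested.

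Of the 112 named genes other than Lair1, 86 kept the sign of APC mutant minus wild type under each alternative tried. There were 15 that passed under at least 1, all of them without wild type replicate 1 and Ms4a4b also with array weights (-3.50). Signs turned with the choice of probe set in Agap1 (0.078), Apc (-0.059), Egfr (-0.15 most variable, -0.16 mean), Jun (-0.33 and -0.12), Lrp6 (-0.33), Nkd1 (-0.00048), Rinl (-0.0196) and Sdc4 (-0.43). They turned with cyclic loess in Ccnd1 (-0.016), Hes1 (-0.0365) and Srp19 (-0.019). They turned with array weights in Hamp2 (0.13), Hes5 (-0.00026), Ms4a4c (-0.21), Muc2 (-0.079), Myc (0.069), Sox9 (-0.029) and Srp19 (-0.00020), and with the covariate in Hamp2 (0.0015), Hes1 (-0.026), Muc2 (-0.072), Myc (0.032) and Wif1 (-0.0105). With 1 array left out the differences ran from -2.71 to 0.0305 for Alpi, -0.0502 to 0.0209 for Car1, -0.18 to 0.16 for Ccnd1, -0.35 to 0.035 for Cd44, -0.14 to 0.78 for Des, -1.54 to 0.0050 for Gzma, -0.33 to 0.17 for Hamp2, -0.18 to 0.25 for Hes1, -0.084 to 0.12 for Hes5, -0.053 to 0.35 for Mki67, -0.31 to 1.18 for Ms4a4c, -0.084 to 0.14 for Muc2, -0.33 to 0.15 for Myc, -0.11 to 0.85 for Nkd1, -2.04 to 0.31 for Oas3, -0.22 to 0.36 for Sox9, -0.058 to 0.085 for Srp19 and -0.091 to 0.87 for Tnfrsf19.

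No paired analysis was possible because the groups compared share no animal and their replicate numbers were given in accession order.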
